A study of Arabidopsis thaliana with 16 samples.

Results

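AT5G40690, AT2G15220, AT5G38900 and AT1G68490 are 4 genes of Arabidopsis thaliana that were picked because their change between 30 and 60 days of growth differed between the autophagy mutant atg5 and the wild type Col-0. They are 4 of 13286 genes that a probe set of their own represents in the annotation used, and each has 1 probe set. The measured change itself chose them, so on the arrays that chose them their values are given as a description without a test. Transcript levels in whole rosettes were read on 16 Affymetrix arrays, 2 for each of 8 groups.

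The groups were atg5, atg9 and Col-0 rosettes of 60 days and of 30 days on low nitrate (2 mM), and atg5 and Col-0 rosettes on high nitrate (10 mM). The atg5-3 plants carry the line SALK_02060 as the labels spell it and the atg9 plants SALK_130796. SALK lines carry a T-DNA insertion, and each mutant here was a single allele. All plants grew in short days of 8 h light and 16 h dark. Each array held RNA pooled from the rosettes of more than 6 plants, and the 2 arrays of a group came from 2 cultures grown months apart, called culture 1 and culture 2 here. The labels give the high-nitrate arrays both 30 and 60 days, so their age is not settled and they were treated as groups without an age. No probe set was annotated to ATG5 or ATG9 alone, so the mutated genes were not analysed here.

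Autophagy encloses cytoplasm and organelles in a membrane, the autophagosome, and delivers them to the vacuole for breakdown and reuse. ATG5 belongs to the conjugation machinery that attaches the ubiquitin-like protein ATG8 to lipid on that membrane, and ATG9 is a membrane protein that helps supply membrane to it. Arabidopsis plants that lack autophagy are known for early leaf senescence and for raised levels of the defence hormone salicylic acid. AT2G15220 encodes a protein of the plant basic secretory protein family, whose relatives in tobacco and wheat are counted among pathogenesis-related proteins. AT5G38900 encodes a protein of the thioredoxin superfamily with a DSBA-type oxidoreductase domain, a fold of enzymes that handle thiols. No role is given here for AT5G40690 or AT1G68490.

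Values are signals on a linear scale, and as deposited the arrays shared a common trimmed mean. A probe set's signal depends on its own probes, so levels are compared within a gene and not between genes. Here 2 arrays stood apart from the rest. On the Col-0 array of 30 days in culture 1 the lower quartile of signals was 89.3, while the other arrays had 26.6 to 39, and it correlated less with its replicate (r = 0.866 over probe sets). In culture 1 the older atg5 array had an actin 3′ to 5′ signal ratio, a sign of RNA quality, of 9.05, against 1.5 to 3.04 elsewhere. Of 10 rosette markers 2 had a probe set, and both were bright on every array. RCA, the Rubisco activase, lay between 17246.3 and 31078.3, and SBPASE between 6715 and 17429.6. Of 8 root markers 4 had a probe set, and EXPA7 and EXPA18 lay under the array's lower quartile on 10 and 12 arrays. The root markers BGLU23, at 228.3 to 1310.6, and EXPB1, at 94.2 to 1345.2, lay under it on 0 arrays. The 8 flower markers had no probe set of their own and were not analysed here.

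AT5G40690 was high in older autophagy mutants and low in the wild type at every age and nitrate level. Its signal in atg5 at 60 days was 4073.7 and 3232.4 in cultures 1 and 2, against 102.2 and 61.4 in atg5 at 30 days. In atg9 it was 1796.7 and 1466.3 at 60 days, against 78.4 and 56.4 at 30 days. Col-0 read 181.2 and 62.0 at 60 days, against 137.1 and 76.6 at 30 days. The ages did not overlap in either mutant, and they overlapped in Col-0. On high nitrate the signal was 1027.4 and 2418.0 in atg5, against 83.3 and 162.3 in Col-0, again without overlap. Ordered by geometric mean, atg5 at 60 days stood alone at the top. It was followed by atg9 at 60 days and atg5 on high nitrate, which overlapped each other, and a gap separated these 3 groups from the other 5. Among those 5 each neighbour in the order overlapped the next, from Col-0 on high nitrate with a mean of 116.3 to atg9 at 30 days with 66.5.

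**Figure D1:**
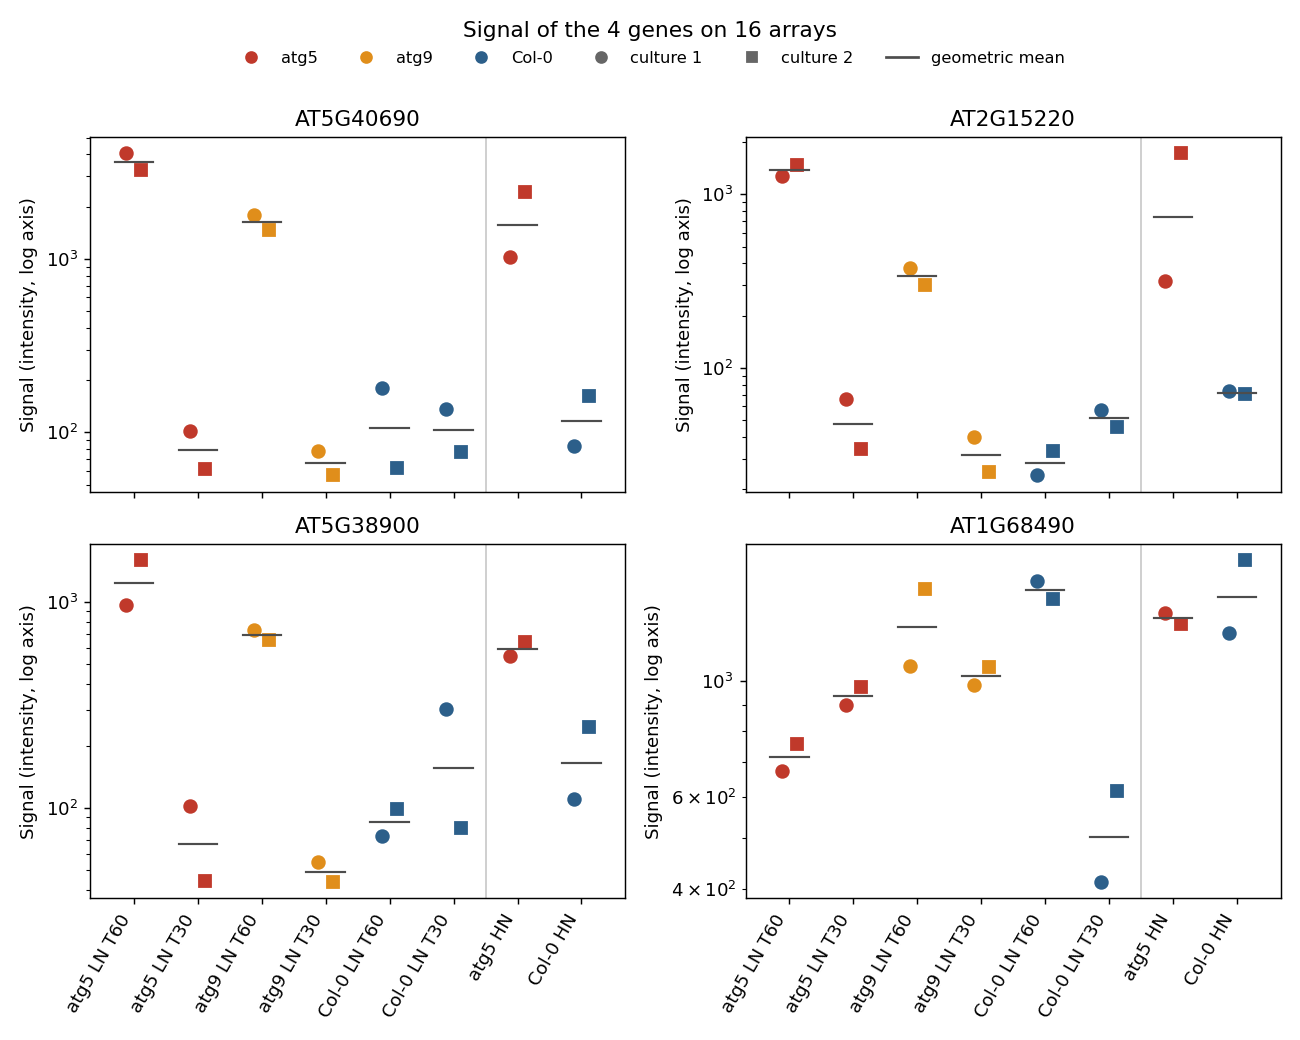
Signal of each of the 4 genes on all 16 arrays, on a log axis, for low nitrate (LN) at 60 and 30 days (T60, T30) and high nitrate (HN); points are single arrays by culture and bars are the geometric mean of the group. AT5G40690, AT2G15220 and AT5G38900 are high in atg5 and atg9 at 60 days and in atg5 on high nitrate, and AT1G68490 stays within a range of 4.12-fold.

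AT2G15220, the secretory protein gene, was high in the same 3 groups. In atg5 it read 1281.3 and 1481.9 at 60 days, against 66.5 and 34.2 at 30 days. In atg9 it read 376.8 and 302.0 at 60 days, against 39.8 and 25 at 30 days. In Col-0 the direction was the other way, with 24.0 and 33.3 at 60 days against 57.5 and 45.8 at 30 days, and the ages did not overlap in any of the 3 genotypes. On high nitrate atg5 read 318.1 and 1729.3, against 73.3 and 70.6 in Col-0. The 2 atg5 cultures there differed by 5.44-fold, the widest gap within any group of this gene, and that spread made atg5 on high nitrate overlap both older mutants in the order of levels. Below these 3 groups came Col-0 on high nitrate, separate from the groups on either side, and the other 4 each overlapped the next. On 3 of the 16 arrays this gene lay under the lower quartile of its array, so its low levels are the least certain. Its probe set is of a type that may also bind related transcripts.

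AT5G38900, the thioredoxin-superfamily gene, showed the pattern with a smaller span. In atg5 it read 961.4 and 1596.4 at 60 days, against 102.5 and 44.1 at 30 days. In atg9 it read 725.9 and 651.6 at 60 days, against 54.7 and 43.6 at 30 days. In Col-0 it read 73.2 and 99.3 at 60 days, against 302.0 and 80.1 at 30 days. The mutant ages were separate and the Col-0 ages overlapped. The Col-0 reading of 302.0 came from the array with the raised lower quartile, and it lay 3.77-fold above the other culture. Without that array the difference in ageing between atg5 and Col-0 was 4.05 on the log2 scale for this gene, against 5.07 with it. On high nitrate the signal was 548.7 and 639.2 in atg5, against 110.0 and 246.6 in Col-0, with no overlap. Atg5 at 60 days, atg9 at 60 days and atg5 on high nitrate followed one another in that order without overlap, and the 5 remaining groups each overlapped the next.

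AT1G68490 differed between the ages mainly in the wild type. In atg5 it read 671.4 and 758.1 at 60 days, against 897.4 and 972.1 at 30 days. In atg9 it read 1066.0 and 1498.3 at 60 days, against 979.1 and 1059.8 at 30 days. In Col-0 it read 1549.0 and 1428.8 at 60 days, against 412.1 and 615.1 at 30 days. Both Col-0 arrays of 30 days were the lowest of all 16, and the atg5 arrays of 60 days came next. In the order of levels Col-0 at 60 days, Col-0 and atg5 on high nitrate and atg9 at 60 days overlapped in turn, and the other 4 groups followed without overlap. On high nitrate it read 1348.5 and 1282.2 in atg5, against 1232.0 and 1699.7 in Col-0, and these groups overlapped. Its cultures were the closest of the 4 genes, with a median ratio between cultures of 1.11 over the 8 groups, against 1.73 for AT5G40690, 1.51 for AT5G38900 and 1.32 for AT2G15220.

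The change that chose the genes is the 60 minus 30 day change in atg5 minus that in Col-0. On the log2 scale it was 5.47 ± 0.77 (SE of the limma fit) for AT5G40690, 4.91 in culture 1 and 6.02 in culture 2. It was 5.71 ± 0.90 for AT2G15220, 5.53 and 5.9 in the cultures. For AT5G38900 it was 5.07 ± 0.85, with 5.27 and 4.87 by culture. These 3 genes were higher with age in atg5, by 5.52, 4.85 and 4.20 on the log2 scale, while their Col-0 changes were 0.05, -0.86 and -0.87. AT1G68490 ran the other way at -1.95 ± 0.32, with -2.33 and -1.57 by culture. Its 60 minus 30 day difference was -0.39 in atg5, against 1.56 in Col-0. These changes are in whole rosettes, in which a change in the number of cells of a type and in the RNA per cell cannot be told apart.

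Of 13648 probe sets tested, 22 passed an adjusted p of 0.05 for this difference, or 0.161%. Of these 18 were higher (0.132%) and 4 lower (0.0293%). The 4 genes are among the 7 of these 22 that belong to 1 gene. The other genes that passed were AT3G47540 at 4.26 ± 0.36, ATG8H at 4.04 ± 0.62 and AT3G29240 at 2.04 ± 0.33. ATG8H is a member of the ATG8 family. Just outside were CCOAMT at 5.43 ± 0.94, AT5G57910 at 2.54 ± 0.44 and AT1G67860 at 2.29 ± 0.40. Differences as large as those of the members thus stood on the other side of the threshold, and the line between them was drawn by p alone. Without the 2 arrays that stood apart, the members' differences were 5.02, 5.5 and 4.46 for AT5G40690, AT2G15220 and AT5G38900 and -1.74 for AT1G68490. In that setting 1 probe set passed and none of the 4 genes, and leaving out a single array moved the 22 calls to between 1, for most arrays, and 689, without the Col-0 array of 30 days in culture 2.

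**Figure D2:**
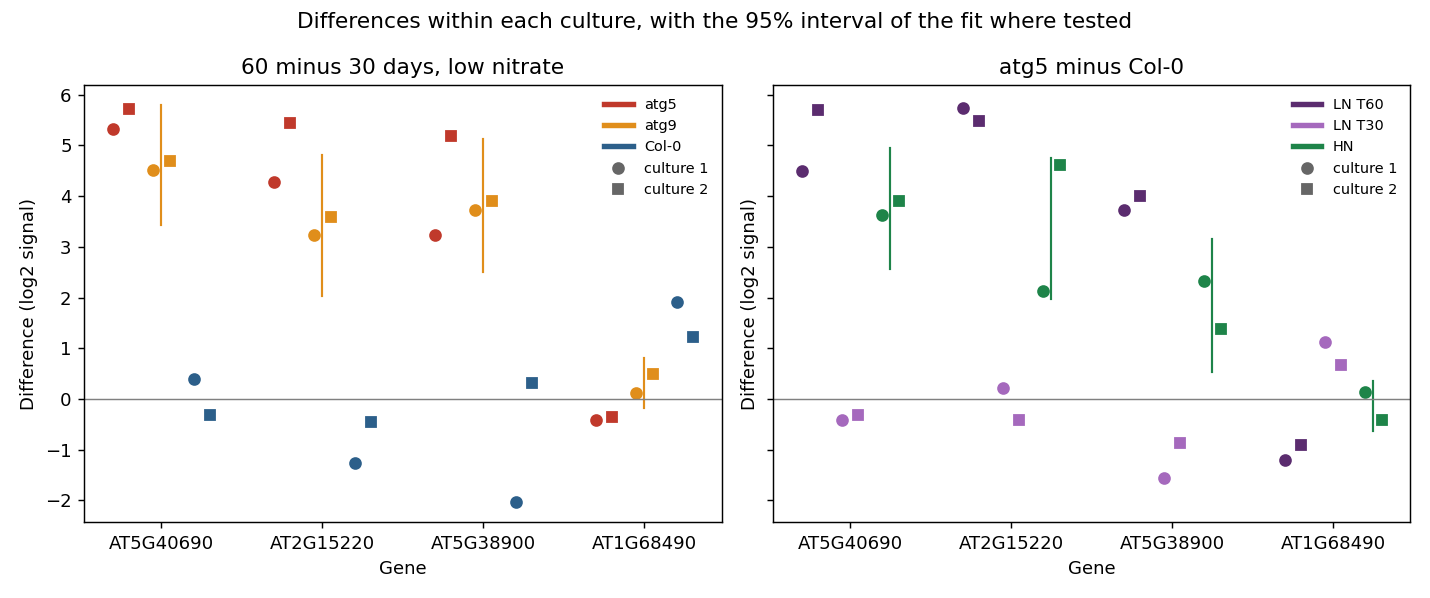
Log2 differences of the 4 genes, atg5, atg9 and Col-0 between 60 and 30 days on low nitrate (LN) at left and atg5 minus Col-0 on low nitrate at each age (T60, T30) and on high nitrate (HN) at right; points are cultures and lines the 95% interval of the fit where tested. In atg9 ageing AT5G40690, AT2G15220 and AT5G38900 lie above 0 in both cultures, and AT1G68490 stays close to 0.

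The 4 atg9 arrays were outside the contrast that chose the genes, so ageing in this second mutant could be tested. They did enter the signal filter and the spread of that contrast's fit, so the test is not fully independent of the choice. AT5G40690, AT2G15220 and AT5G38900 rose between 30 and 60 days in atg9, and AT1G68490 did not pass the test. AT5G40690 was 24.4-fold higher at 60 days, a log2 change of 4.61 ± 0.54 (SE, 2 arrays a group), with 4.52 and 4.70 in the cultures and an adjusted p of 0.000615 from limma. AT5G38900 was 14.1-fold higher, 3.82 ± 0.60 on the log2 scale with 3.73 and 3.90 by culture, and a limma adjusted p of 0.00219. AT2G15220 was 10.7-fold higher, at 3.42 ± 0.64 with 3.24 and 3.59 by culture, and a limma adjusted p of 0.00444. Ageing changed much of the transcriptome of atg9: 22.1% of the tested probe sets passed in either direction, 13.5% higher and 8.61% lower, against 3 of these 4 genes higher and none lower. Of all calls 61% were higher, or 48.1% after quantile normalization, which moved the median log2 change of all probe sets by more than 0.1, to -0.03 from 0.13. Their rises ranked 49, 93 and 135 among all log2 changes, for AT5G40690, AT5G38900 and AT2G15220.

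AT1G68490 had a difference of 0.31 ± 0.23 in atg9 (log2, limma adjusted p = 0.341), with a 95% interval of -0.18 to 0.80. Its difference in ageing from Col-0 uses arrays that chose the gene and was not tested. For the other genes the intervals were 3.42 to 5.80 for AT5G40690, 2.50 to 5.13 for AT5G38900 and 2.02 to 4.81 for AT2G15220. Adding 32 to each signal before the log, which damps changes from a low level, left log2 changes of 4.07, 3.15 and 2.53 in that order. The spread in this fit comes from all 16 arrays, those that chose the genes included. When the 4 atg9 arrays were fitted alone, where 8.36% of probe sets were higher, the limma adjusted p was 0.00289 for AT5G40690, 0.00406 for AT5G38900 and 0.00673 for AT2G15220. That fit had 1 residual degree of freedom and a median prior of 4.77 drawn from all probe sets, so its p-values rest mostly on the prior. The AT2G15220 call was lost when the culture 1 array at 60 days (log2 change 3.18, limma adjusted p = 0.0519) or the culture 2 array at 30 days (2.98, limma adjusted p = 0.0535) was left out. Over 12 alternatives its limma adjusted p ran from 0.00347 to 0.0535.

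**Figure D3:**
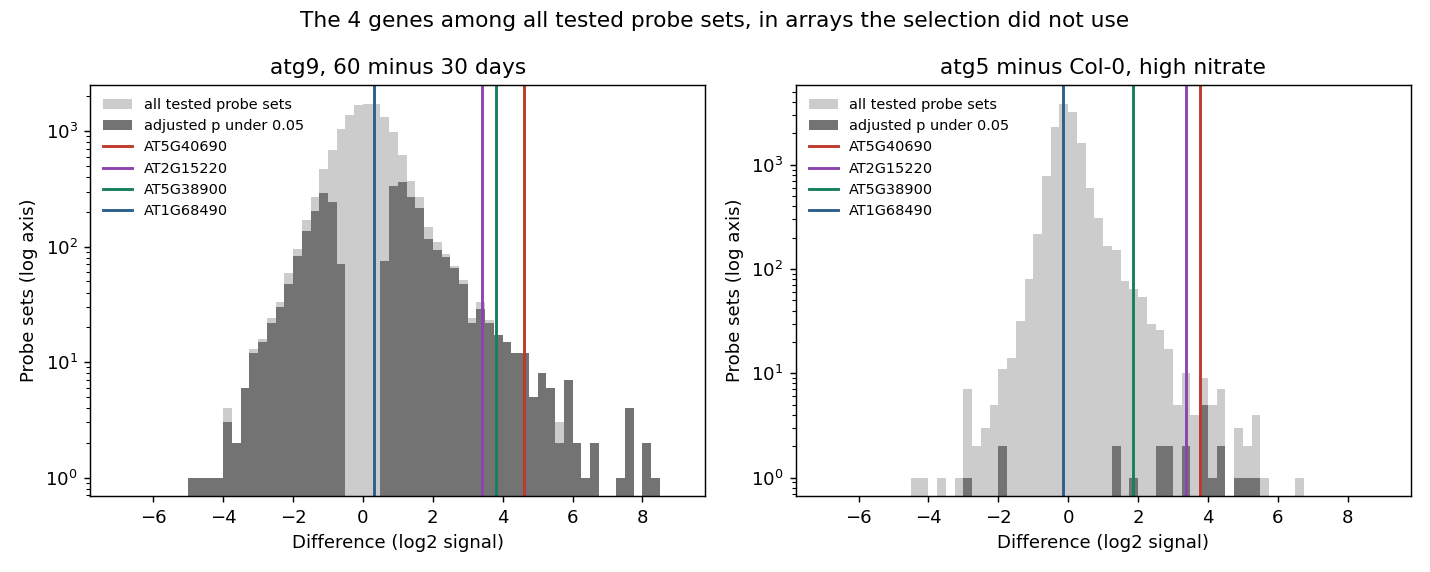
Log2 differences of all 13648 tested probe sets in atg9 ageing and in atg5 against Col-0 on high nitrate, with the 4 genes marked. AT5G40690, AT2G15220 and AT5G38900 sit in the upper tail of both distributions, and AT1G68490 sits near their centres.

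The 4 high-nitrate arrays were likewise outside the contrast that chose the genes, but inside its filter and spread. They ask whether the genes differ between atg5 and Col-0 when nitrate is ample. AT5G40690 was higher in atg5 by 13.6-fold, a log2 difference of 3.76 ± 0.54 (SE, 2 arrays a group) with 3.62 and 3.90 in the cultures and a limma adjusted p of 0.0269. AT2G15220 differed by 3.37 ± 0.64, or 10.3-fold, with 2.12 and 4.61 by culture, and did not pass (limma adjusted p = 0.0684). AT5G38900 differed by 1.85 ± 0.60, or 3.60-fold, with 2.32 and 1.37 by culture, and did not pass (limma adjusted p = 0.346). AT1G68490 differed by -0.14 ± 0.23 (limma adjusted p = 0.95), with an interval of -0.63 to 0.36. Few probe sets passed this comparison at all: 23, or 0.169%, of which 20 were higher in atg5, or 0.147%, and 3 lower, or 0.022%, while 1099 had an unadjusted p under 0.05. The AT5G40690 difference ranked 32 among all rises, that of AT2G15220 43 and that of AT5G38900 214.

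These calls moved with the arrays in the fit. AT5G40690 lost its call when the Col-0 array of culture 1 was left out (3.07, limma adjusted p = 0.41) or the atg5 array of culture 2 (2.91, limma adjusted p = 0.527). AT2G15220 passed when the atg5 array of culture 1, its low atg5 reading, was left out (4.71, limma adjusted p = 0.013). It also passed after quantile normalization over the tested probe sets (3.60, limma adjusted p = 0.0241) and after 32 was added to each signal (2.92, limma adjusted p = 0.0405). It did not pass after quantile normalization over all probe sets (3.33, limma adjusted p = 0.1) or without the atg5 array of culture 2 (2.03, limma adjusted p = 0.999). Fitted on the 4 high-nitrate arrays alone, AT5G40690, AT2G15220 and AT5G38900 had limma adjusted p of 1.82e-06, 0.000496 and 0.000621, but 7.11% of all probe sets were higher in that fit. AT1G68490 did not pass in that fit either (limma adjusted p = 0.715). That fit had 1 residual degree of freedom and a median prior of 9.77 drawn from all probe sets, so its p-values rest mostly on the prior. Over 12 alternatives the limma adjusted p ran from 1.82e-06 to 0.527 for AT5G40690, from 0.000496 to 0.999 for AT2G15220, from 0.000621 to 1 for AT5G38900 and from 0.715 to 1 for AT1G68490.

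The remaining comparisons share arrays with the choice and are given side by side as differences on the log2 scale, without a test. Atg5 minus Col-0 at 60 days on low nitrate was 5.10 for AT5G40690, 5.61 for AT2G15220, 3.86 for AT5G38900 and -1.06 for AT1G68490. At 30 days the same difference was -0.37, -0.11, -1.21 and 0.89 in that order of genes. Each gene's fitted difference thus had opposite signs at the 2 ages. At 30 days those of AT5G40690 and AT2G15220 were smaller than their SE of 0.54 and 0.64, so their sign there is not settled. AT2G15220 had 0.21 and -0.42 by culture at that age. Atg9 minus Col-0 was 3.94, 3.58, 3.01 and -0.24 at 60 days, and -0.62, -0.70, -1.67 and 1.02 at 30 days, against the same Col-0 arrays. The 60 minus 30 day change in atg9 minus that in Col-0 was 4.56, 4.28, 4.68 and -1.25.

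Nitrate gave a second axis, with the reservation that the age of the high-nitrate plants is not settled. In atg5 low nitrate at 60 days minus high nitrate was 1.2 for AT5G40690, 0.89 for AT2G15220, 1.06 for AT5G38900 and -0.88 for AT1G68490. In Col-0 it was -0.13, -1.35, -0.95 and 0.04. Low nitrate at 30 days minus high nitrate was -4.31, -3.96, -3.14 and -0.49 in atg5, against -0.18, -0.49, -0.08 and -1.52 in Col-0, in the same order of genes. The atg5 signals on high nitrate of the first 3 genes were thus nearer to those of atg5 at 60 days than at 30 days on low nitrate. Nitrate and age cannot be told apart in these values.

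The 3 genes that were high in older mutants moved together across arrays. The correlation of their log2 signals was 0.951 for AT5G40690 with AT2G15220, 0.935 for AT5G40690 with AT5G38900 and 0.917 for AT2G15220 with AT5G38900 over 16 arrays. Over the 8 arrays outside the contrast that chose the genes it was 0.946, 0.954 and 0.891. With AT1G68490 it was 0.002, -0.074 and -0.091 over 16 arrays, for AT5G40690, AT2G15220 and AT5G38900. These values joined opposite signs: 0.277, 0.269 and 0.492 over those 8 arrays, and -0.244, -0.364 and -0.455 over the other 8. Arrays of a group share genotype, age and nitrate, and genes chosen on the same contrast must share part of their pattern, so these are descriptions only.

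Among 7291 other tested probe sets with 1 gene, those most like each gene were ranked by the correlation of log2 signal over the 16 arrays. For AT5G40690 they were AT1G62760 (r = 0.976), of the pectin methylesterase inhibitor family, AT2G37750 (r = 0.973) and AT1G26390 (r = 0.970), a berberine bridge enzyme-like gene. AT1G62760 read 9587.3 and 5805.1 in atg5 at 60 days against 122.0 and 53.1 at 30 days, and 3049.2 and 2005.4 in atg9 at 60 days against 63.0 and 23.0 at 30 days. On high nitrate AT1G62760 read 2481.2 and 6953.9 in atg5 against 59.5 and 197.0 in Col-0. It was thus high in the same 3 groups as AT5G40690.

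For AT2G15220 the most alike was ATG8H (r = 0.971), whose product is a form of the protein that the ATG5 machinery attaches to lipid. ATG8H read 4942.5 and 2339.4 in atg5 at 60 days against 339.1 and 231.0 at 30 days, and 1029.6 and 844.4 in atg9 at 60 days against 229.0 and 284.4 at 30 days. In Col-0 it read 191.4 and 221.6 at 60 days against 219.1 and 353.5 at 30 days, so the ages overlapped there. AT5G38710 (r = 0.957), a proline dehydrogenase gene, and AT4G03450 (r = 0.956), an ankyrin repeat gene, came next. ATG8H itself passed the threshold of the contrast that chose the 4 genes.

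For AT5G38900 the most alike was cwINV6 (r = 0.965), which is named after cell wall invertases, an activity not shown here. Next came AT4G00700 (r = 0.964), a C2-domain gene, and AT5G66930 (r = 0.962), known in Arabidopsis as the autophagy gene ATG101. AT5G66930 moved far less than the member, with 837.9 and 1067.9 in atg5 at 60 days against 372.4 and 323.1 at 30 days. For AT1G68490 they were GID1A (r = 0.861), a gibberellin receptor, AT4G07990 (r = 0.855) and AT4G10730 (r = 0.855), a protein kinase gene. These last were less alike over the 8 arrays outside the contrast that chose the gene, at 0.679, 0.687 and 0.685. Without the 2 arrays that stood apart they were at 0.762, 0.779 and 0.741 over 14 arrays. The corresponding values for the genes most like the other 3 members lay between 0.943 and 0.992 over the 8 arrays. Over the 14 arrays they lay between 0.949 and 0.986. The 8 and the 14 arrays are part of the arrays over which the genes were ranked. High values there follow in part from the ranking and are not an independent check.

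**Figure D4:**
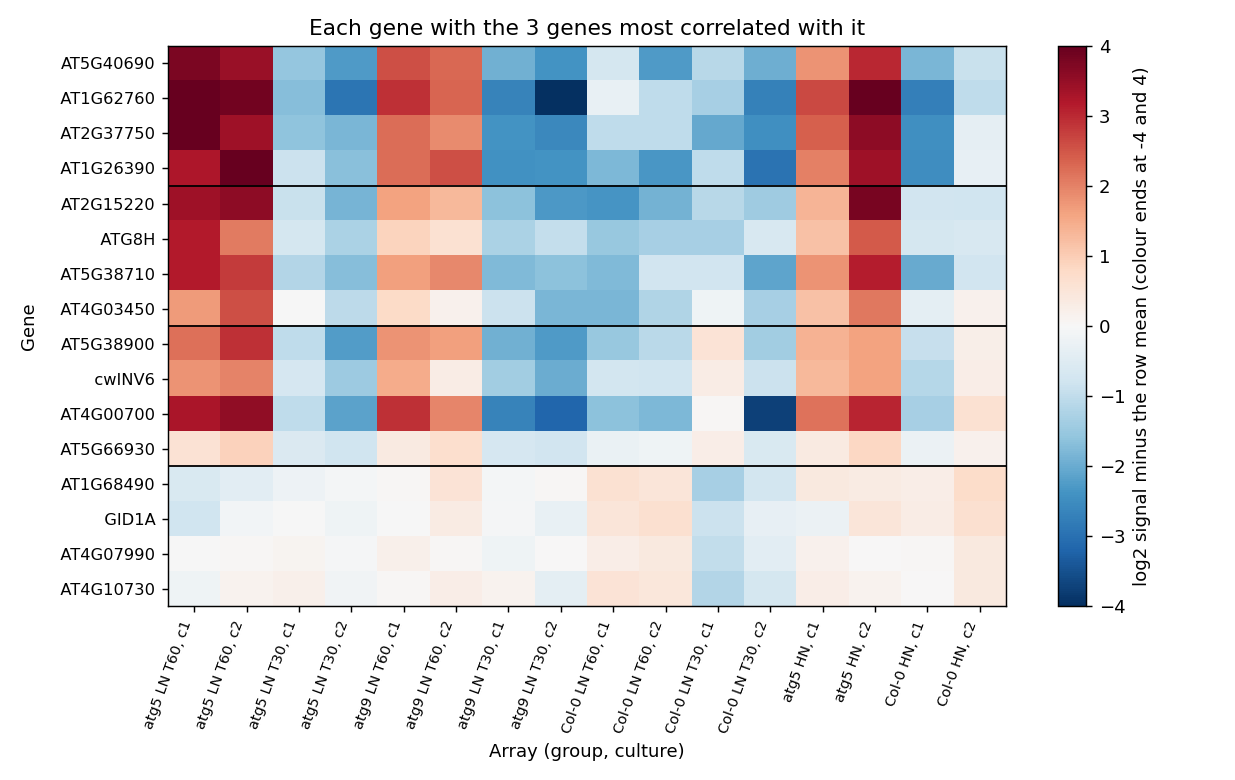
Colour map of log2 signal on the 16 arrays (columns, by group and culture) for each gene and the 3 genes most correlated with it, each minus its own mean over the arrays. The first 3 blocks are red in atg5 at 60 days and on high nitrate, and the block of AT1G68490 is bluest in the Col-0 arrays of 30 days.

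A defence, a senescence and a redox list set the 4 genes beside known processes, with few members measured by a probe set of their own. Of 34 salicylic acid and defence genes 4 were tested, of 20 leaf senescence genes 4, and of 20 redox and glutathione genes 3. In atg9 ageing, in which 13.5% of all tested probe sets were higher, 1 of 4 defence genes rose, SAG101, a defence signalling lipase-like gene (log2 change 1.61 ± 0.42, limma adjusted p = 0.0206). Of the 4 senescence genes 2 rose, PPDK, the pyruvate phosphate dikinase of nitrogen remobilisation (2.05 ± 0.36, limma adjusted p = 0.00342), and WRKY6, a senescence transcription factor (1.99 ± 0.38, limma adjusted p = 0.00484). Of the 3 redox genes 1 rose, NDB2, a mitochondrial NAD(P)H dehydrogenase (1.09 ± 0.36, limma adjusted p = 0.0467). No listed gene of the 3 lists passed as lower. The values below 0 were those of SWEET15 in the senescence list (-1.07 ± 0.95, limma adjusted p = 0.445) and UPOX in the redox list (-0.49 ± 0.43, limma adjusted p = 0.431). The list medians were 1.78, 1.97 and 1.09 on the log2 scale for defence, senescence and redox, against 0.13 over all tested probe sets. No redox gene passed in 8 of 12 other settings, and the defence count ran from 0 to 2 over them.

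On high nitrate none of the listed genes passed between atg5 and Col-0. The smallest p in the defence list were those of SARD4, an enzyme of pipecolic acid synthesis (1.84 ± 0.47, limma adjusted p = 0.178), and WRKY53, a transcription factor in both the defence and the senescence list (2.26 ± 0.98, limma adjusted p = 0.595). WRKY6 differed by 1.42 ± 0.38 (limma adjusted p = 0.202) and NDB2 by 0.61 ± 0.36 (limma adjusted p = 0.736). GRX480, a glutaredoxin gene in the defence and the redox list, differed by 1.81 ± 1.08 (limma adjusted p = 0.756). List medians were 1.82 for defence, 1.14 for senescence and 0.61 for redox, against -0.03 over all probe sets. In the fit of the 4 high-nitrate arrays alone 3 defence, 3 senescence and 1 redox gene passed as higher, where 7.11% of all probe sets did.

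For the difference in ageing between atg5 and Col-0 none of the listed genes passed either. SARD4 came nearest, at 2.94 ± 0.66 (limma adjusted p = 0.0929), followed in its list by WRKY53 at 2.36 ± 1.39 (limma adjusted p = 0.458). WRKY6 differed by 0.88 ± 0.53 (limma adjusted p = 0.475), NDB2 by 1.45 ± 0.50 (limma adjusted p = 0.24) and GRX480 by 1.5 ± 1.53 (limma adjusted p = 0.678). The list medians were 1.93, 0.83 and 1.45 for defence, senescence and redox, against -0.12 over all probe sets.

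Marker levels moved beside the atg9 rises. SBPASE, a Calvin cycle enzyme among the rosette markers, fell by 1.10 on the log2 scale in atg9 with age (limma adjusted p = 0.0119), and RCA differed by -0.24 (limma adjusted p = 0.513). The root marker BGLU23 fell by 1.64 (limma adjusted p = 0.00913). Their part in the result was not tested.

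**Figure D5:**
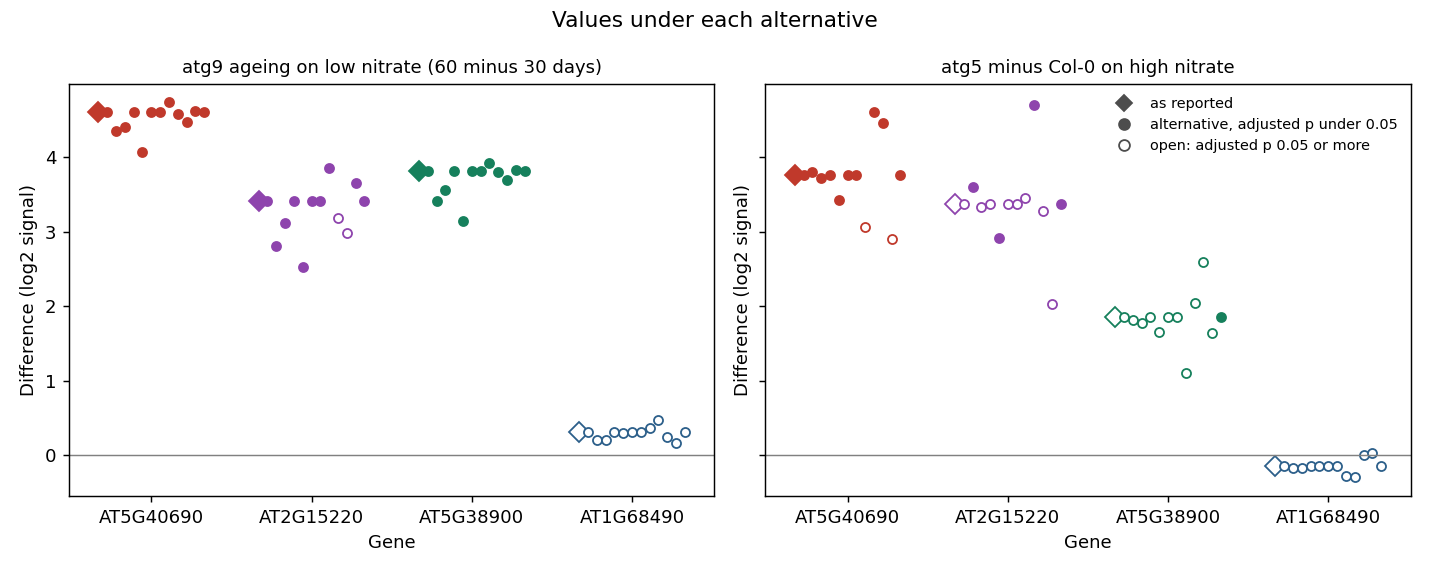
Log2 difference of the 4 genes in the 2 tested comparisons under each setting of the analysis, with a diamond for the value as reported and filled symbols where the limma adjusted p was under 0.05. AT5G40690 and AT5G38900 passed in atg9 ageing in all 12 alternatives, and AT5G38900 passed on high nitrate only with the 4 arrays alone.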

How the data were processed

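Per the submitters' processing notes MAS5 was used, with no version named. The deposited intensity values cover 22810 probe sets on 16 arrays. A mean per array computed here, trimmed by 2% at each end, lay between 500 and 500.1, so arrays had been scaled. Other upstream steps are not given in the sources used here, and no detection calls were used. The number of arrays limits the precision.

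From these intensities the 64 control probe sets were removed, a floor of 1 was set and values were put on the log2 scale. The 40th percentile of the mean log2 signal over 22746 probe sets, a geometric mean signal of 93.9, was the filter, which kept 13648 for testing. The model in limma 3.58.1 (R 4.3.3) held 8 group means and culture, with trended eBayes, 7 residual degrees of freedom and a median prior of 4.64. Tests were two-sided, with Benjamini-Hochberg adjustment over all tested probe sets and a threshold of 0.05. The fitting was tested on simulated data. P-values rest on 2 cultures of pooled plants a group.

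Annotation gave 1 gene to 13513 probe sets, several to 503 and none listed to 8730. The replicate number marks a shared culture per the labels, so culture was a block. The cultures' differences correlated between groups with r from -0.159 to 0.686 over 28 pairs, with a median of -0.0657, and over 0.1 in 8. Most pairs of groups thus showed no shared culture difference.

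The members, lists and comparisons were chosen with earlier results of these data known. Named genes were the 4 members, the 3 most correlated genes of each, list genes that passed (at most 4 a list) or the 2 with the smallest p, and named genes next to the threshold of the choice. The comparison of related proteins was not run, since no protein sequences were used here. Alternatives were no block, quantile normalization, no filter, 32 added, no trend, arrays left out and the 4 arrays of a comparison alone. A quantile normalization over all probe sets was chosen after seeing the data.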

Additional observations from a re-analysis of the deposited data

Results flagged for a closer look

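Several differences had opposite signs in both cultures between 2 groups; each is a first effect minus a second on the log2 scale, and none of these differences was tested, since they use the arrays that chose the genes or the same Col-0 arrays.

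For AT5G40690, atg5 minus Col-0 was positive in both cultures at 60 days and negative in both at 30 days on low nitrate (5.47 apart), and 30 days on low nitrate against high nitrate differed by -4.13. The value at 30 days on low nitrate, -0.37, was smaller than its SE of 0.54. Atg9 minus Col-0 changed sign likewise between 60 and 30 days (4.56). For AT2G15220 the 60 minus 30 day change was positive in both mutants and negative in Col-0, by 5.71 for atg5 against Col-0 and 4.28 for atg9 against Col-0. The Col-0 change was only -0.86 with an SE of 0.64. In culture 1 the Col-0 readings of 24.0 at 60 days and 57.5 at 30 days lay under their arrays' lower quartiles, 28.4 and 89.3. The negative sign in Col-0 thus rests on low signals and is not settled. Atg9 minus Col-0 also changed sign between 60 and 30 days for this gene (4.28).

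For AT5G38900, atg5 minus Col-0 changed sign between 60 and 30 days (5.07) and between 30 days on low nitrate and high nitrate (-3.06), and atg9 minus Col-0 between 60 and 30 days (4.68). AT1G68490 was lower at 60 than at 30 days in both atg5 cultures and higher at 60 days in both atg9 cultures (-0.7 apart) and both Col-0 cultures (-1.95 apart). The atg9 change itself was tested and did not pass (0.31 ± 0.23, limma adjusted p = 0.341), so its sign is not settled. For AT1G68490 the atg5 minus Col-0 difference was negative at 60 days and positive at 30 days (-1.95).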

How the results depend on the processing

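AT5G40690 and AT5G38900 kept their call in atg9 ageing in all 12 alternatives and AT2G15220 in 10, while AT1G68490 passed in none (limma adjusted p from 0.278 to 0.757). The 3013 calls of that comparison were 794 to 1599 when an array was left out and 1699 with its 4 arrays alone. The 23 calls of atg5 against Col-0 on high nitrate were 63 after quantile normalization, 62 with 32 added, 14 without trend, 47 without the 2 arrays that stood apart, 0 to 43 when an array was left out and 1478 with its 4 arrays alone. The fits with 0 were those that lacked Col-0 culture 1 or, separately, atg5 culture 2. Quantile normalization over all probe sets gave 22 calls on high nitrate, and the 63 belong to that over the tested probe sets. AT1G68490 there reversed without the culture 2 array of Col-0 (0.00) or of atg5 (0.03), against -0.14 with all arrays and -0.3 at the lowest. The 22 calls of the difference that chose the genes were 38 without the replicate block, 123 after quantile normalization, 3 after quantile normalization over all probe sets, 56 without the filter, 86 with 32 added, 1 without trend, 1 without the 2 arrays and 1 to 689 when an array was left out. All 4 genes passed in 6 of these 15 alternatives and none in 8. Without the culture block, atg9 ageing had 2784 calls and high nitrate 25, and no call on the 4 genes changed in those 2 comparisons. The causes were not tested. With 2 arrays a group and no detection calls, low signals are the least precise.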

Other observations

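AT5G38895, the gene next to AT5G38900 in the annotation, was chosen after its values were seen. It rose with age in atg9 by 1.51 ± 0.30 on the log2 scale (limma adjusted p = 0.00559) and differed by 0.45 ± 0.30 between atg5 and Col-0 on high nitrate (limma adjusted p = 0.801). The other neighbours of the 4 genes were not tested or had no probe set of their own.

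On high nitrate the culture 2 array of atg5 read higher than the culture 1 array for AT5G40690, AT2G15220 and AT5G38900 and for each of the 9 genes most like them. AT1G62760, for example, read 2481.2 and 6953.9 in cultures 1 and 2, and cwINV6 read 368.9 and 459.1. The Col-0 arrays of that comparison ran the same way for AT5G40690 and AT5G38900 and stood at 73.3 and 70.6 for AT2G15220. The 9 genes were picked by their correlation with the members over all arrays, those on high nitrate included. Their shared direction there was thus in part set by that choice and adds no separate evidence.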
